A study of Homo sapiens with 12 samples.

Results

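The Polycomb complex genes examined here were the 10 genes EZH2, EZH1, EED, SUZ12, JARID2, RBBP4, RBBP7, BMI1, RING1 and RNF2, selected by symbol, with no measured value in the rule. All 10 were found among the 11529 genes of the deposited expression table. The study sequenced mRNA of 2 human breast cancer cell lines of the triple-negative type, MDA-MB-468 and MDA-MB-231, with 3 wild type (control) samples and 3 samples with a CRISPR/Cas9 knockout (KO) of SMARCA4 in each, 12 in all. SMARCA4 encodes an ATPase of the SWI/SNF chromatin remodeling complex, and the comparisons ask how its loss alters expression in each cell line. The KO cells were polyclonal pools made with 1 guide RNA in the lentiCRISPR-v2 vector and selected with puromycin, so that a pool can hold cells with unedited or in-frame alleles. The study's protein blots set parental cells apart from cells given a nontargeting control vector. The labels of the RNA samples call them both wild type and control, so it is not settled which of these were sequenced. Neither was it stated what separates the replicates of a group, and p-values therefore measure only the spread between these samples, which may be technical. Values were log2(FPKM + 1), where FPKM is the number of fragments scaled to transcript length and to library size. Read depth was unknown, and only FPKM values were used to compare levels between genes.

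Polycomb proteins silence genes through 2 kinds of complex. In PRC2, EZH2 or its paralog EZH1 is the methyltransferase that places the H3K27me3 mark, EED and SUZ12 are core subunits required for activity, RBBP4 or RBBP7 binds histones, and JARID2 is an accessory subunit that helps to bring the complex to chromatin. In PRC1, RING1 or its paralog RNF2 is the E3 ligase that ubiquitinates histone H2A, and BMI1 is its partner in a canonical form. SWI/SNF and Polycomb complexes are known to act against each other on chromatin. EZH2 is typical of proliferating cells, whereas EZH1 is also found in cells that do not divide.

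The SMARCA4 transcript was lower in the KO samples of both lines. In MDA-MB-468 cells its FPKM was 98.5 ± 2.4 in control and 43.6 ± 4.0 in KO samples (SD, n = 3 each), and in MDA-MB-231 cells it was 68.7 ± 2.5 and 22.5 ± 1.4. The log2 differences were -1.16 (adjusted p = 0.0137, limma) and -1.57 (adjusted p = 0.00143, limma). In MDA-MB-468 cells the adjusted p was 0.0154 to 0.0748 when 1 sample was left out, over 0.05 without control replicate 2 or 3 or KO replicate 2. RNA that carries a small deletion can still be counted, so these levels do not measure the share of edited cells. Root mean square differences of log2 values were 0.185 to 0.286 between samples of a group, 0.287 to 0.397 between control and KO samples of a line, and 1.498 to 1.601 between the lines. Marker genes separated the lines. All 8 epithelial markers on a fixed list were higher in control MDA-MB-468 cells, among them KRT5 (log2 difference 8.86), whereas the 3 mesenchymal markers in the table were lower, among them VIM (-8.53). Of 7 leukocyte and endothelial markers only CD14 was in the table, at an FPKM of 49.6 ± 3.4 in control MDA-MB-468 and 1.16 ± 0.33 in control MDA-MB-231 samples. ESR1 and PGR were not in the table either.

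The bases upstream of 4 of the genes are given first, because RBBP4, EZH1, SUZ12 and BMI1 were the members that passed the call rule between the cell lines. The sequences came from RefSeq promoters of GRCh38.p14, were matched to GRCh37, and end at the base before the annotated gene. Capitals mark either of a pair of motifs, the E2F core (TTCCCGC or TTGGCGC or TTCGCGC or TTGCCGC) or the CCAAT box, each searched on both strands. The regions were chr1:33116559-33116742 (plus strand) for RBBP4, chr17:40897068-40897308 (minus strand) for EZH1, chr17:30263776-30264025 (plus strand) for SUZ12 and chr10:22609778-22610027 (plus strand) for BMI1.
RBBP4: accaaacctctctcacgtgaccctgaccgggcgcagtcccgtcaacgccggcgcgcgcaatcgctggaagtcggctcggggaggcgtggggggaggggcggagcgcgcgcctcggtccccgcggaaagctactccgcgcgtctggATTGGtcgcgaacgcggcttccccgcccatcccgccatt
EZH1: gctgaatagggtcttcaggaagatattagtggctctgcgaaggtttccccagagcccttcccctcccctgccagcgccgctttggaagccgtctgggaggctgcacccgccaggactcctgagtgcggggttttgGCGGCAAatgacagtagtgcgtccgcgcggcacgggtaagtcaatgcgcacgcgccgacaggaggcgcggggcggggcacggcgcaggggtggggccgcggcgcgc
SUZ12: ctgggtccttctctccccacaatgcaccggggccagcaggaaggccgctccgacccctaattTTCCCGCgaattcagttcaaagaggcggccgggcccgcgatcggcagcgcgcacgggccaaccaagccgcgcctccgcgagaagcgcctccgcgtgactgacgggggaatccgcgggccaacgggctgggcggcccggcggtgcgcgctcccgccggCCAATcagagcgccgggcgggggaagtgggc
BMI1: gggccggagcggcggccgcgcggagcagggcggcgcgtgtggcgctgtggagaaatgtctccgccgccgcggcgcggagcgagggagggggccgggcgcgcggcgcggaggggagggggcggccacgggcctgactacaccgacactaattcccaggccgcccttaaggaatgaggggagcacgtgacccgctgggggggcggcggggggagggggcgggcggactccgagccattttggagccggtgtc
Within the 250 bases before each RefSeq start, an E2F core was found for 4 of the 10 genes (RBBP4, RNF2, SUZ12 and EZH1) and in 11% of 27305 promoters. The CCAAT box was found for 6 of the 10 (RBBP4, JARID2, EZH2, EED, SUZ12 and RBBP7) and in 33% of promoters. RBBP4 had 2 overlapping E2F cores and a further CCAAT box between its annotated gene start and its RefSeq start, which are not printed. BMI1 had neither motif in its window. These matches describe letters only.

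In control MDA-MB-468 cells, RBBP4 was the most abundant of the 10 transcripts (FPKM 203.9 ± 0.4), followed by RBBP7 (180.5 ± 8.2) and EZH2 (49.0 ± 4.0). The middle of the order was EED (28.7 ± 2.0), BMI1 (23.5 ± 1.7), RING1 (19.8 ± 0.9), SUZ12 (15.9 ± 0.9) and JARID2 (11.5 ± 0.8). RNF2 (9.32 ± 1.99) and EZH1 (6.15 ± 0.95) were the lowest, and these neighbours were the only pair in the order whose samples overlapped. In control MDA-MB-231 cells the order differed at several places. RBBP7 (176.0 ± 12.2) came before RBBP4 (89.5 ± 4.3), and BMI1 (48.1 ± 4.8) stood beside EZH2 (51.7 ± 0.9), with overlapping samples. SUZ12 (27.03 ± 1.1) was above EED (24.7 ± 1.2) and RING1 (21.2 ± 1.5). JARID2 (13.6 ± 1.4), EZH1 (13.2 ± 1.1) and RNF2 (13.1 ± 0.8) could not be told apart by their samples. Thus all 10 genes were expressed in both lines, and 0 of them was listed at 0 in any group.

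**Figure D1:**
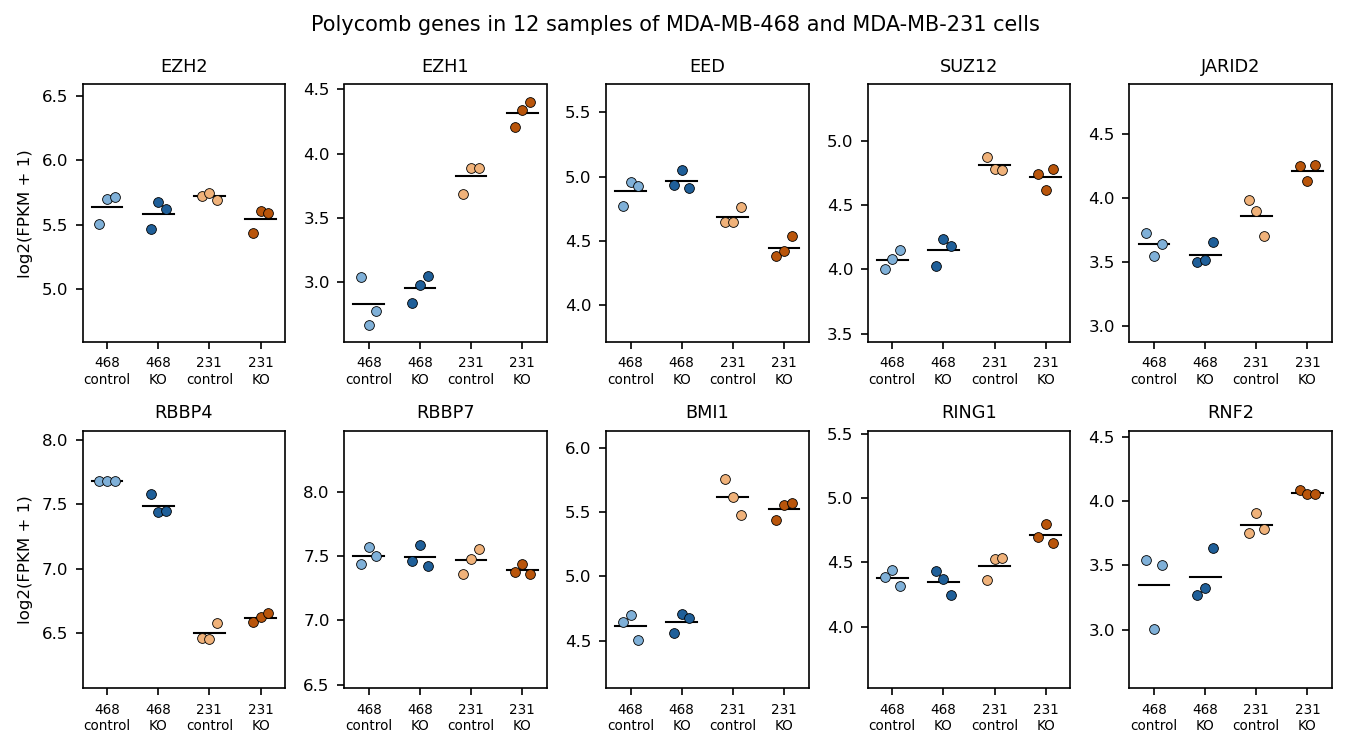
Deposited log2(FPKM + 1) of the 10 Polycomb genes (vertical axes, each 2 log2 units high) in the 3 control and 3 KO samples of both lines, whose numbers label the horizontal axes. Points are samples and bars are group means; RBBP4 was higher and EZH1, SUZ12 and BMI1 were lower in MDA-MB-468 control samples, without overlap, and EZH1 was higher in the MDA-MB-231 KO than in the control samples.

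Control MDA-MB-468 cells were compared with control MDA-MB-231 cells first. A gene was called when its Benjamini-Hochberg adjusted p over all 11529 genes was under 0.05 and its absolute log2 difference was over 0.5. By this rule 4 of the 10 genes were called, RBBP4 as higher and EZH1, SUZ12 and BMI1 as lower in MDA-MB-468, beside 64.1% of all genes tested (32.7% higher and 31.4% lower). The share of the members was thus below that of the table, whose genes had been kept by the authors for their average and SD of FPKM. Samples of the lines did not overlap for 6 of the 10 genes, against 85.5% of all genes.

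RBBP4 differed most between the lines. Its FPKM was 204, 204 and 204 in the 3 control MDA-MB-468 samples and 87.3, 86.8 and 94.5 in the MDA-MB-231 samples. Each MDA-MB-468 sample was above each MDA-MB-231 sample, with a log2 difference of 1.18 ± 0.07 (SE, adjusted p = 1.21e-06, limma), or 228% of the FPKM in MDA-MB-231. RBBP7, its paralog, had FPKM values of 172, 189 and 180.2 in MDA-MB-468 and 163, 177 and 187 in MDA-MB-231 cells. These overlapped, and the log2 difference of RBBP7 was 0.04 (95% interval -0.15 to 0.22, adjusted p = 0.665, limma). RBBP4 has 7 annotated pseudogenes, of which 0 were in the table, so reads shared with them could have been assigned to either. The same limit holds for EZH2, EED, SUZ12, BMI1 and RNF2, with 1 pseudogene each, 0 of them in the table. The pseudogene SUZ12P1 is annotated as transcribed. How reads were divided was not tested.

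The H3K27 methyltransferases also separated. EZH1 had FPKM values of 7.21, 5.37 and 5.87 in control MDA-MB-468 and 11.9, 13.8 and 13.8 in control MDA-MB-231 samples. All MDA-MB-468 samples were lower, with a log2 difference of -0.99 ± 0.11 (SE, adjusted p = 6.57e-05, limma), or 46.7% of the FPKM in MDA-MB-231. EZH2 was at 44.4, 51.1 and 51.4 in MDA-MB-468 and 51.9, 52.6 and 50.7 in MDA-MB-231 samples. Here the samples overlapped, and the log2 difference was -0.08 (95% interval -0.27 to 0.10, adjusted p = 0.363, limma). Of the core subunits, SUZ12 was at 15, 15.9 and 16.7 in MDA-MB-468 and 28.3, 26.5 and 26.3 in MDA-MB-231 samples, again without overlap. Its log2 difference was -0.73 ± 0.07 (SE, adjusted p = 3.07e-05, limma). EED lay the other way, at 26.4, 30.1 and 29.5 against 24.0, 24.0 and 26.2, with a log2 difference of 0.20 (adjusted p = 0.0425, limma) that was under the fold limit. This adjusted p was under 0.05 in 2 of 6 fits that left out 1 sample, those without MDA-MB-231 control replicate 3 or MDA-MB-468 control replicate 1, and was 0.0157 to 0.142 over the 6. JARID2 was at 12.2, 10.7 and 11.5 in MDA-MB-468 and 14.8, 13.9 and 12.03 in MDA-MB-231 samples, which overlapped. Its log2 difference was -0.22 (adjusted p = 0.0541, limma).

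Among the PRC1 genes, BMI1 was lower in MDA-MB-468 cells. Its FPKM was 24.0, 25.0 and 21.7 in the MDA-MB-468 and 53.0, 47.9 and 43.4 in the MDA-MB-231 control samples, with no overlap. The log2 difference was -1.0 ± 0.10 (SE, adjusted p = 2.48e-05, limma). BMI1 shares sequence with COMMD3-BMI1, an annotated readthrough transcript of BMI1 and the gene COMMD3 that precedes it on chromosome 10. This transcript was quantified separately, at 16.2 ± 1.8 FPKM in MDA-MB-468 against 31.4 ± 8.6 in MDA-MB-231 control samples (log2 difference -0.88, adjusted p = 0.00335, limma), and COMMD3 also differed in this direction (-0.79, adjusted p = 0.000123, limma). How reads were divided between them was not tested. RNF2 was at 10.6, 7.03 and 10.3 in MDA-MB-468 and 12.5, 13.99 and 12.8 in MDA-MB-231 samples. The groups did not overlap, but the log2 difference of -0.47 (adjusted p = 0.016, limma) was just under the fold limit, and RNF2 was called with a pseudocount of 0.1 and without MDA-MB-468 control replicate 1 or 3. RING1 had 19.9, 20.7 and 18.9 against 19.5, 22.03 and 22.1, with a log2 difference of -0.09 (adjusted p = 0.293, limma). The called member nearest to the limit of 0.5 was thus SUZ12, at -0.73, and the nearest member that was not called was RNF2.

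Knockout of SMARCA4 in MDA-MB-468 cells was compared with its control next. With limma, 0 of the 10 genes were called, beside 2.14% of all genes, and 1 (RBBP4) had an unadjusted p under 0.05, beside 25.1% of all genes. RBBP4 was at 204, 204 and 204 FPKM in the control and 190.2, 173 and 174 in the KO samples. Every KO sample was below every control sample, and the log2 difference was -0.19 (95% interval -0.32 to -0.06, adjusted p = 0.103, limma). It was the only member whose groups did not overlap, against 31.0% of all genes. The adjusted p of RBBP4 was 0.0488 to 0.283 over fits that left out 1 sample, under 0.05 only without KO replicate 1.

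For each of the other 9 members, control and KO samples of MDA-MB-468 overlapped. EZH2 was at 44.4, 51.1 and 51.4 FPKM in control and 43.1, 50.1 and 48.2 in KO samples, with replicate 1 the lowest of each genotype, and its log2 difference was -0.05 (95% interval -0.27 to 0.16, adjusted p = 0.736, limma). The other catalytic subunit, EZH1, was at 7.21, 5.37 and 5.87 in control and 6.15, 6.87 and 7.28 in KO samples. These overlapped, with a log2 difference of 0.12 (95% interval -0.15 to 0.40, adjusted p = 0.527, limma). The remaining members had log2 differences from -0.08 (JARID2, adjusted p = 0.536) to 0.08 (EED, adjusted p = 0.526), all overlapping. The interval of RNF2 was the widest, from -0.376 to 0.497, with control samples from 7.03 to 10.6 FPKM. All 10 intervals lay within ±0.5, the call limit. Of the 10 genes 5 were above and 5 below 0, with a median log2 difference of 0.01 beside 0.02 over all genes. Of the 8 epithelial markers 5 were above and 3 below 0 in this line, and 0 were called. KRT8 was at 0.495 (adjusted p = 0.0318, limma), just under the fold limit. KRT17 was at 1.48 (adjusted p = 0.122, or 0.0329 with the replicate number as a block, limma). VIM was at 0.42 (adjusted p = 0.21, limma), with overlapping samples. Of the other mesenchymal markers, ZEB1 was at 0.11 (adjusted p = 0.427) and FN1 at -0.13 (adjusted p = 0.625, limma), also overlapping.

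In MDA-MB-231 cells, KO of SMARCA4 was also followed by 0 calls among the 10 genes with limma, beside 3.7% of all genes. Counted without a fold limit, EZH1 and RNF2 had an adjusted p under 0.05, both higher in KO samples, beside 10.8% of all genes in either direction and 5.34% that were higher. An unadjusted p under 0.05 was found for 6 of the 10 (EZH2, EZH1, EED, JARID2, RING1 and RNF2), beside 31.2% of all genes. Control and KO samples did not overlap for 7 of the 10, beside 36.0% of all genes.

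EZH1 showed the largest difference. Its FPKM was 11.9, 13.8 and 13.8 in control and 17.5, 19.2 and 20.2 in KO samples, so that the lowest KO sample was above the highest control sample. The log2 difference was 0.49 (95% interval 0.29 to 0.70, adjusted p = 0.0263, limma), or 144% of the control FPKM, just under the limit of 0.5. With a pseudocount of 0.1 in place of 1 or with samples scaled to the same 75th percentile, the difference was 0.52 and 0.53 and EZH1 was called. In all 6 fits without 1 of the 6 samples its adjusted p was over 0.05, at 0.0552 to 0.101. EZH2 went the other way, at 51.9, 52.6 and 50.7 in control and 42.2, 47.8 and 47.3 in KO samples. These did not overlap either, and the log2 difference was -0.18 (95% interval -0.33 to -0.02), which did not pass the test (adjusted p = 0.118, limma).

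The other PRC2 genes of MDA-MB-231 cells divided in direction. EED was at 24.0, 24.0 and 26.2 FPKM in control and 19.8, 20.5 and 22.2 in KO samples, each KO sample being lower, and the log2 difference was -0.24 (adjusted p = 0.0668, limma). JARID2 was at 14.8, 13.9 and 12.03 in control and 18.0, 16.5 and 18.1 in KO samples, each KO sample being higher, and the log2 difference was 0.35 (adjusted p = 0.0567, limma). JARID2 thus stood just outside the threshold on p, and its adjusted p was 0.0184 in 1 fit of all 12 samples and up to 0.154 without 1 sample. RBBP4 was at 87.3, 86.8 and 94.5 in control and 94.7, 97.4 and 99.7 in KO samples, also without overlap, with a log2 difference of 0.12 (adjusted p = 0.187, limma). SUZ12 (-0.09, adjusted p = 0.35) and RBBP7 (-0.08, adjusted p = 0.466) had overlapping samples.

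Both E3 ligases of PRC1 were higher in each MDA-MB-231 KO sample than in each control sample. RNF2 was at 12.5, 13.99 and 12.8 FPKM in control and 15.9, 15.6 and 15.6 in KO samples. Its log2 difference was 0.25 (95% interval 0.12 to 0.38, adjusted p = 0.0443, limma), or 120.2% of the control FPKM. The KO samples of RNF2 had an SD of only 0.02 on the log2 scale, and with the spread shared over all 12 samples the adjusted p was 0.228. It was under 0.05 in 1 of the 6 fits without 1 sample, the one without control replicate 2. RING1 was at 19.5, 22.03 and 22.1 in control and 24.9, 26.8 and 24.1 in KO samples, with a log2 difference of 0.24 (95% interval 0.07 to 0.42, adjusted p = 0.0807, limma). BMI1 was at 53.0, 47.9 and 43.4 in control and 42.4, 46.0 and 46.6 in KO samples, which overlapped (log2 difference -0.09, adjusted p = 0.513, limma). Over the 10 genes the median log2 difference was 0.02, beside -0.01 over all genes, with 5 above and 5 below 0. Among the marker genes, CDH1 was higher (log2 difference 0.54, adjusted p = 0.0442, limma) and VIM lower (-0.39, adjusted p = 0.0309, limma) in the MDA-MB-231 KO samples. The other mesenchymal markers were FN1, at -0.47 (adjusted p = 0.0617), and ZEB1, at 0.02 (adjusted p = 0.885, limma). CDH1 was at only 0.27 ± 0.15 FPKM in control and 0.84 ± 0.20 in KO samples, and with a pseudocount of 0.1 its difference was 1.42 and its adjusted p 0.0597 (limma). Of the 8 epithelial markers all 8 were above 0 there and CDH1 alone was called. The adjusted p of CDH1 and VIM was over 0.05 in 11 of 12 fits without 1 sample. CD14 rose from 1.16 ± 0.33 to 3.98 ± 1.18 FPKM (log2 difference 1.18, adjusted p = 0.0294, limma). The markers moved in the same samples, and their part in the values of the Polycomb genes was not tested.

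**Figure D2:**
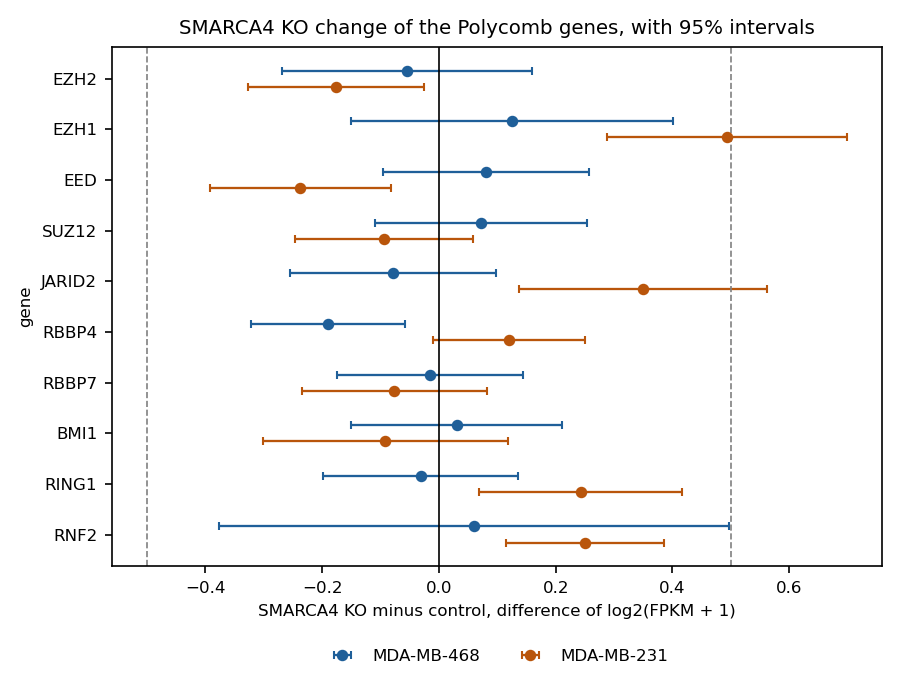
SMARCA4 KO minus control difference of log2(FPKM + 1) (horizontal axis) for each Polycomb gene in either cell line. Points are differences of 3 KO and 3 control samples, bars are 95% intervals from limma without adjustment, and dashed lines mark the limit of 0.5; only EZH1 in MDA-MB-231, at 0.49, comes close to it.

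The KO changes of the lines were then compared with each other in 1 fit of all 12 samples, which uses the same control samples as the comparisons above. Of the 10 genes 0 were called with limma, beside 8.71% of all genes (4.29% higher and 4.41% lower). That count over all genes had 495 higher and 509 lower in MDA-MB-468, and 394 higher and 610 lower when samples were scaled to the same 75th percentile. Without a fold limit JARID2 and RBBP4 had an adjusted p under 0.05, both lower, beside 14.7% of all genes in either direction and 6.83% that were lower, and 5 of the 10 (with EZH1, EED and RING1) an unadjusted p under 0.05, beside 31.5%. The KO change of JARID2 was -0.08 in MDA-MB-468, against 0.35 in MDA-MB-231, a difference of -0.43 ± 0.12 (SE, adjusted p = 0.0358, limma). RBBP4 had changes of -0.19 and 0.12, a difference of -0.31 ± 0.09 (SE, adjusted p = 0.037, limma). Neither held throughout. Under the fit blocked by replicate number within each line, a pairing that is not settled, the adjusted p was 0.0599 for JARID2 and 0.0625 for RBBP4 (limma). Leaving out 1 sample at a time, it was under 0.05 in 4 of 12 fits for JARID2 (range 0.0309 to 0.0855) and in 2 of 12 for RBBP4 (0.0195 to 0.0931). For EZH1 the difference between the lines was -0.37 (95% interval -0.69 to -0.05), with an adjusted p of 0.108 (limma), so that its KO change was not shown to differ between them. EED was at 0.32 (adjusted p = 0.0638, limma) and RING1 at -0.27 (adjusted p = 0.106, limma).

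Within a sample, the FPKM of EZH1 relative to EZH2 describes which methyltransferase transcript prevailed. The ratio was 0.162, 0.105 and 0.114 in control and 0.143, 0.137 and 0.151 in KO samples of MDA-MB-468 cells. In MDA-MB-231 cells it was 0.229, 0.263 and 0.273 in control and 0.414, 0.402 and 0.426 in KO samples. EZH2 was therefore the higher transcript in all 12 samples, and the MDA-MB-231 KO samples had the highest share of EZH1. The MDA-MB-231 groups were separate (two-sided exact permutation p = 0.1, the smallest that 3 against 3 samples allow), whereas the MDA-MB-468 groups overlapped (exact permutation p = 0.4). These tests were 12 in all, over 4 gene pairs and 3 comparisons, and none could reach 0.05.

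The histone-binding pair differed mainly by line. RBBP4 over RBBP7 was 1.13 ± 0.05 in control and 1.004 ± 0.092 in KO samples of MDA-MB-468 cells, and 0.509 ± 0.023 and 0.584 ± 0.024 in MDA-MB-231 cells (SD, n = 3). The KO samples lay above the controls in MDA-MB-231 (exact permutation p = 0.1) and overlapped with them in MDA-MB-468 cells (exact permutation p = 0.2). SUZ12 over EED was 0.555 ± 0.023 and 0.553 ± 0.037 in MDA-MB-468 and 1.095 ± 0.087 and 1.21 ± 0.08 in MDA-MB-231 cells. RNF2 over RING1 was 0.473 ± 0.115 and 0.505 ± 0.116 in MDA-MB-468 and 0.617 ± 0.035 and 0.623 ± 0.036 in MDA-MB-231 cells, overlapping between genotypes in each line. In all 12 samples RING1 was thus the higher of the ligase transcripts.

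**Figure D3:**
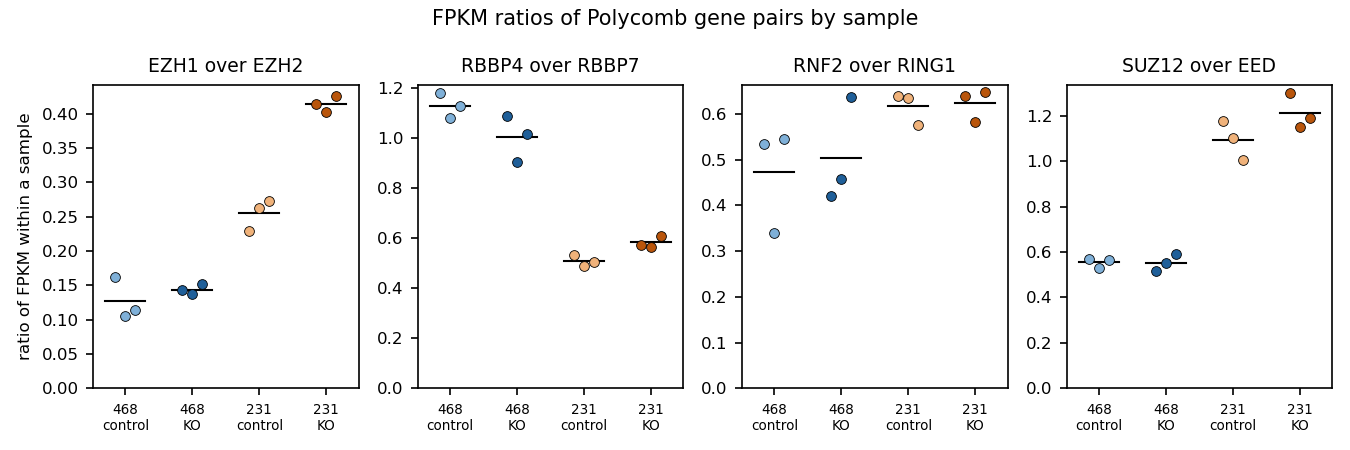
Ratio of FPKM within each sample (vertical axes, from 0) for EZH1 over EZH2, RBBP4 over RBBP7, RNF2 over RING1 and SUZ12 over EED in the 4 groups of 3 samples. Points are samples and bars are means; the EZH1 over EZH2 ratio is 0.127 in MDA-MB-468 control and 0.414 in MDA-MB-231 KO samples on average.

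For each called member, the genes with the most similar pattern over the 12 samples were found by the root mean square difference of log2 values centred on each gene's mean. EZH1 was closest to YEATS2 (0.08) and PFKFB3 (0.11), while its own values spread by 0.62 around their mean. SUZ12 was closest to EIF3A (0.04) and RNF8 (0.05), against a spread of 0.33. RBBP4 was closest to CBWD2 (0.07) and AHCYL1 (0.07), against 0.52, and BMI1 to CLTC (0.07) and DYNC1H1 (0.08), against 0.48. Most of this spread lay between the cell lines.

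Other Polycomb subunits were counted on lists. Between the control lines, 5 of 7 PRC2 accessory subunits in the table were called (1 higher and 4 lower in MDA-MB-468), 6 of 8 canonical PRC1 subunits (3 and 3) and 12 of 20 variant PRC1 subunits (8 and 4). These shares lie around the 64.1% of all genes. PHF19, a subunit that binds methylated H3K36, had the largest PRC2 difference (log2 difference -2.11), ahead of C17orf96 (-0.83) and PHF1 (-0.60). Among canonical PRC1 genes CBX2 (1.49), which encodes a chromodomain protein that binds H3K27me3, and SCMH1 (0.88) were higher in MDA-MB-468. Of the variant PRC1 genes, AUTS2 was at 19.1, 21.0 and 22.3 FPKM in control MDA-MB-468 samples and was listed at 0 in the 3 control MDA-MB-231 samples. CBX3 (1.103) and BCORL1 (-0.96) followed.

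Enzymes that reverse the Polycomb marks were counted in the same way. Of the PR-DUB complex, which removes ubiquitin from histone H2A, 6 of 9 genes were called between the lines (3 higher and 3 lower), a share near the 64.1% of all genes, with ASXL1 (log2 difference -1.06), MBD5 (0.99) and the deubiquitinase BAP1 itself (-0.94) the largest. Of the H3K27 demethylases, KDM6B was called as higher in MDA-MB-468 (0.87) and KDM6A was not (-0.11, adjusted p = 0.277, limma). After SMARCA4 KO, 0 genes of these 5 lists were called in either line with limma, beside 2.14% (MDA-MB-468) and 3.7% (MDA-MB-231) of all genes. An unadjusted p under 0.05 was found in MDA-MB-468 for 2 of 7 PRC2 accessory, 0 of 8 canonical PRC1, 3 of 20 variant PRC1, 1 of 9 PR-DUB and 0 of 2 demethylase genes, beside 25.1% of all genes. In MDA-MB-231 these counts were 1, 2, 4, 2 and 1, beside 31.2%. Without the fold limit, C17orf96 (0.32, adjusted p = 0.0293), CBX6 (0.21, adjusted p = 0.0315) and FOXK1 (0.30, adjusted p = 0.0312) were higher in MDA-MB-231 KO samples (limma), and were named after these values had been seen. For these 3 genes the adjusted p was over 0.05 in 17 of 18 fits without 1 sample.

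HOX genes are classical targets of Polycomb silencing, and 15 of 39 on the list were in the table. The other 24 were not in it, and 9 of the 15 were listed at 0 in MDA-MB-231 control samples, so that these 9 could pass the authors' filter only through their level in other groups. The count called between the control lines (15, with 14 higher and HOXB9 lower in MDA-MB-468) and their direction are therefore largely set by that filter, and are given as a description. HOXC10 was at 22.9, 23.4 and 25.3 FPKM in MDA-MB-468 control samples and listed at 0 in all MDA-MB-231 control samples, as were 8 further HOX genes. HOXC13 (10.3, 9.90 and 11.6) was among these 8, and HOXB7 was at 11.01, 11.99 and 14.9 against 0.23, 0.24 and 0.28. HOXB9, named after its values had been seen, was at 0.02 ± 0.01 in MDA-MB-468, against 4.42 ± 0.33 in MDA-MB-231 control samples. After the KO, 0 HOX genes were called in either line with limma, with an unadjusted p under 0.05 for 5 of 15 (MDA-MB-468) and 3 of 15 (MDA-MB-231), beside 25.1% and 31.2% of all genes. Of the 9 HOX genes listed at 0 in MDA-MB-231 controls, 8 were at 0 in the KO samples as well, and HOXA10 had a mean FPKM of 0.02. HOXB9 alone had an adjusted p under 0.05, being higher in MDA-MB-231 KO samples (log2 difference 0.47, adjusted p = 0.0331, limma), which became 0.0516 to 0.115 without 1 sample. The H3K27me3 mark itself was not measured in these samples.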

How the data were processed

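TruSeq Stranded mRNA libraries were sequenced for 12 samples of the 2 cell lines. Reads were trimmed (Trimmomatic) and mapped to hg19 (STAR) by the authors, who computed FPKM by RSEM, dropped each gene whose FPKM averaged under 1 or had an SD under 1, and for 11529 genes deposited log2(FPKM + 1). In the deposited values the smallest average was 1.07 and the smallest SD 1.00, so genes with a low average or SD of FPKM are missing from every background given here. In 18 rows a date stands for the symbol; they were tested and not named. Depth is unknown, and no count interval was computed.

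Each comparison was fitted to all genes with limma 3.58.1 in R 4.3.3 (lmFit, eBayes without trend), without a further filter. KO against control used the 6 samples of a line, control against control the 6 controls, and the difference of KO changes all 12. Genes with a Benjamini-Hochberg adjusted p under 0.05 and an absolute log2 difference over 0.5 were called, as in the study. The scripts were tested on simulated data. Two-sided exact permutation tests were run on log2 values of FPKM ratios.

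The rule for the members uses symbols alone, but the members and gene lists were chosen with earlier results of these data known. Named were all members, SMARCA4, up to 3 called genes per list and comparison by absolute difference, and the 2 nearest genes of each called member. A gene that this rule would name is not reported here.

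Replicate numbers come from the sample titles. In MDA-MB-468 cells, deviations from the group mean correlated across genes between same-numbered control and KO samples at 0.254, 0.161 and 0.119. Control replicate 3 with KO replicate 2 reached 0.131, so pairing by number is possible there but not settled. In MDA-MB-231 cells same-numbered samples showed no such correlation, which does not settle whether they are paired. The main fits used no replicate block, and blocked fits are given as alternatives. Alternatives were a pseudocount of 0.1, mean FPKM of at least 1 or 5, an intensity trend, robust moderation, scaling to the 75th percentile, quantile normalization, 1 fit of all samples, other call rules, replicate blocks, and leaving out each sample.

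Promoters came from the RefSeq table of GRCh38.p14 and were located in GRCh37 with GENCODE annotation, using Python 3.11.15. Figures were drawn with matplotlib 3.10.9.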

Additional observations from a re-analysis of the deposited data

Results flagged for a closer look

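For each gene here the KO change differed between the cell lines by the limma test of that difference (adjusted p under 0.05), with values given as the change in MDA-MB-468 minus that in MDA-MB-231 cells on the log2 scale. Among the Polycomb members these were JARID2 (-0.43, adjusted p = 0.0358) and RBBP4 (-0.31, adjusted p = 0.037), both under the fold limit of 0.5. The targeted gene SMARCA4 was also among them (0.41, adjusted p = 0.027), its loss of transcript being smaller in MDA-MB-468 cells, and its adjusted p was under 0.05 in 6 of 12 fits without 1 sample (0.0108 to 0.0668).

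Among the related lists, PHF19 differed by 0.53 (adjusted p = 0.0163), with KO changes of 0.32 and -0.22 that each missed the threshold within a line (adjusted p = 0.063 and 0.165, limma). MBD5 of the PR-DUB list differed by -0.81 (adjusted p = 0.0419), which was under 0.05 in 3 of 12 fits without 1 sample (0.0132 to 0.0981) and was lost with a pseudocount of 0.1 and with quantile normalization. Of the 15 HOX genes 6 passed the threshold on p, beside 14.7% of all genes. That count is a description only. Of the 15, 8 were at 0 in all MDA-MB-231 samples and passed the authors' filter through MDA-MB-468 alone. HOXB7 differed by -0.77 (adjusted p = 0.0293), HOXB9 by -0.47 (adjusted p = 0.0181), HOXC6 by 0.52 (adjusted p = 0.0264) and HOXC13 by 0.56 (adjusted p = 0.013). HOXA4 (-0.31, adjusted p = 0.0342, limma) and HOXB4 (-0.43, adjusted p = 0.0388, limma) were, like HOXB9, under the fold limit. Without 1 sample these were under 0.05 in 2 (HOXA4) and 4 (HOXB4) of 12 fits. HOXA4 and HOXC13 were listed at 0 in all MDA-MB-231 samples, so their differences are the MDA-MB-468 change alone. Tested within MDA-MB-468, that change had an adjusted p of 0.0598 for HOXA4 and 0.0536 for HOXC13 (limma). The adjusted p of HOXB7 and HOXB9 was over 0.05 with the replicate number as a block (0.0547 and 0.0531), that of HOXB9 was 0.117 with a pseudocount of 0.1, and without 1 sample that of HOXB7 and HOXC6 was under 0.05 in 8 and 7 of 12 fits. Of the 24 proliferation genes 4 passed the threshold on p. AURKA differed by 0.45 (adjusted p = 0.0318), CCNB1 by 0.36 (adjusted p = 0.0466), MCM6 by -0.35 (adjusted p = 0.0258) and E2F2 by -0.66 (adjusted p = 0.0179, limma for each). AURKA, CCNB1 and MCM6 were under the fold limit. For AURKA the adjusted p was under 0.05 in 5 of 12 fits without 1 sample (up to 0.0797) and 0.0619 with quantile normalization. It was under 0.05 in 3 of 12 such fits for CCNB1, 5 of 12 for MCM6 and 12 of 12 for E2F2. Of the marker genes, CDH1 differed by -0.76 (adjusted p = 0.0137), VIM by 0.81 (adjusted p = 0.0192) and CD14 by -1.75 (adjusted p = 0.0257). The marker ERBB2 differed by -0.42 (adjusted p = 0.0267, limma), under the fold limit. Groups of 3 samples were not tested for single outlying samples.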

How the results depend on the processing

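Read depth is unknown, 3 samples a group limit the precision, and genes with a low average or SD of FPKM were removed before deposit. In MDA-MB-231 KO cells the count of called members was 1 (EZH1) with a pseudocount of 0.1, 1 (EZH1) with the 75th percentile scaling and 2 (EZH1 and RNF2) without the fold limit. For the difference of KO changes it was 2 (JARID2 and RBBP4) without the fold limit. Between the control lines it was 2 (RBBP4 and BMI1) with a log2 difference over 1, and 4 to 5 when 1 sample was left out. The other 73 of 78 alternative counts were within 1.5 times the reported ones. Of 780 alternative log2 differences of the members, 10 changed sign, none of them in a comparison where that member was called. Without 1 sample, the MDA-MB-468 KO change ranged from -0.122 to 0.00672 for EZH2, -0.0627 to 0.0183 for RBBP7, -0.0261 to 0.0746 for BMI1, -0.0739 to 0.0227 for RING1 and -0.111 to 0.156 for RNF2, and the line difference of RBBP7 from -0.0152 to 0.0843. With quantile normalization the difference of KO changes of RBBP7 was -0.000780. With the replicate number as a block, 0, 0 and 0 members were called in the MDA-MB-468, MDA-MB-231 and difference comparisons and 4 between the lines, and 241, 0, 992 and 7405 genes of the table in place of 247, 426, 1004 and 7395. The adjusted p of EZH1 (0.0707), RNF2 (0.123) and SMARCA4 (0.052) in MDA-MB-231 was then over 0.05. In that line same-numbered samples correlated at -0.05, 0.07 and -0.11. With 3 samples a group, such values cannot settle whether the numbers pair them. The numbers in the MDA-MB-231 sample descriptions do match between control and KO samples. The numbers in the MDA-MB-468 sample descriptions match for only a part of the control and KO samples. A fit blocked by these numbers put the unmatched control and KO sample together in 1 block, and 0 members and 0 genes were called. Because of that forced pair, the fit cannot show what true pairing would give. Counts over all genes moved by more than 1.5 times in several fits. In MDA-MB-468 they were 427 with a mean FPKM of at least 1, 422 with robust moderation, 537 in 1 fit of all samples, 614 with an unadjusted p, 432 without the fold limit, 53 with a log2 difference over 1 and 0 to 474 without 1 sample, being 0 without control or KO replicate 2. In MDA-MB-231 they were 1248 without the fold limit, 85 with a log2 difference over 1 and 99 to 311 without 1 sample. For the difference of KO changes they were 1699 and 217, and between the lines 4150 with a log2 difference over 1. The cause was not tested.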

Other observations

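Genes of proliferating cells, which often vary together with EZH2, were compared on a list of 24, all in the table. Between the control lines 15 were called, 5 as higher and 10 as lower in MDA-MB-468, beside 64.1% of all genes (32.7% higher and 31.4% lower). Their median log2 difference was -0.29, beside 0.01 over all genes. E2F2, an E2F transcription factor, was at 17.6, 22.5 and 24.1 FPKM in MDA-MB-468 and 2.99, 2.88 and 3.58 in MDA-MB-231 control samples (log2 difference 2.43). The mitotic kinases lay the other way, with AURKB at 40.2, 52.4 and 44.9 against 107, 116 and 119.9 (log2 difference -1.31) and AURKA at -1.14. EZH2 itself differed by -0.08.

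After SMARCA4 KO in MDA-MB-468 cells, 0 of the 24 were called with limma, beside 2.14% of all genes, with 2 at an unadjusted p under 0.05, beside 25.1%. In MDA-MB-231 cells, where 3.7% of all genes were called, E2F2 was called as higher, at 4.93, 5.07 and 5.65 FPKM in KO samples (log2 difference 0.59, adjusted p = 0.0182, limma), although its adjusted p was 0.0323 to 0.0771 without 1 sample, under 0.05 in 1 of 6 such fits. A further 4 genes of the list passed the threshold on p without the fold limit there, among them AURKA as lower (-0.29, adjusted p = 0.0341, limma). With E2F2 these were 5 of 24 (3 higher and 2 lower), beside 10.8% of all genes. An unadjusted p under 0.05 was found for 11 of 24, beside 31.2%. The list had 8 genes above and 16 below 0 in that comparison, with a median of -0.08 beside -0.01 over all genes.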
